A study of Drosophila melanogaster with 14 samples.

Results

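The 262 microRNA genes of the fly genome annotation were examined in wing imaginal discs, from which the wing of the adult fly develops. They were all genes whose symbol begins with mir-, let-7 being listed there as mir-let7, bantam as mir-ban and the gene of miR-263a as mir-bft. Accessible chromatin was measured by ATAC-seq, which relies on a transposase that inserts into open DNA, and short fragments that lay between nucleosomes were called as nucleosome-free peaks. Merging these peaks over all libraries gave 33226 regions, of which 160 lay on a microRNA gene or within 1 kb of it. Of the 262 genes, 106 (40.5%) had such a region in some library and 156 (59.5%) had none in any. The count of 156 includes mir-10404-1 and mir-10404-2, which lie outside the 6 chromosome arms that the peak lists cover.

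The 14 libraries fell into 7 groups of 2. Regenerating discs, in which apoptosis had been induced, were sampled at 0, 15 and 25 h afterwards, and control discs, kept alike but without cell death, at the same times. A further undamaged group is labelled L3, for the last larval instar, and that stage is given for every library. The labels call regeneration and control separate genotypes, but no allele, driver or death-inducing agent is given in the sources used here, so it cannot be said what the controls share with the damaged discs. Each sample held 10 discs. Replicates are told apart by number only, so spread between them, and any p-value below, may be technical.

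A microRNA gene is transcribed as a long primary RNA, from which a hairpin is cut out and then trimmed to a mature RNA that guides repression of matching messages. Pairing rests mostly on the seed, bases 2 to 8 of the mature RNA. Many hairpins lie inside a host gene and share its promoter, so open chromatin at the hairpin and open chromatin at the start of its primary transcript are separate things. In wing discs bantam promotes growth and blocks apoptosis, the related miR-2, miR-13 and miR-11 repress pro-apoptotic genes, and let-7, miR-100 and miR-125 act in the timing of metamorphosis.

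The RefSeq annotation of Release 6, the assembly known as dm6, held 481 mature sequences for 260 of the genes. The set below holds microRNAs that the results turn on, with 1 arm of each hairpin in its 5′ to 3′ direction and the seed in capitals. It shows which of them have a seed in common, and no target was examined. Here mir-2a-1, mir-2b-1, mir-2c, mir-13a, mir-13b-1 and mir-11 share 1 seed, and mir-279 shares its seed with mir-996.
bantam, 3′ arm: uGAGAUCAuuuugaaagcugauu
mir-bft, 5′ arm: aAUGGCACuggaagaauucacggg
mir-2a-1, 3′ arm: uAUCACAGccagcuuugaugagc
mir-2b-1, 3′ arm: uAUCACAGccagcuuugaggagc
mir-2c, 3′ arm: uAUCACAGccagcuuugaugggc
mir-13a, 3′ arm: uAUCACAGccauuuugaugagu
mir-13b-1, 3′ arm: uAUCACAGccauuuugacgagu
mir-11, 3′ arm: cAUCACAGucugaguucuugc
let-7, 5′ arm: uGAGGUAGuagguuguauagu
mir-100, 5′ arm: aACCCGUAaauccgaacuugug
mir-125, 5′ arm: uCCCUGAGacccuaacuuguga
mir-34, 5′ arm: uGGCAGUGugguuagcugguugug
mir-275, 3′ arm: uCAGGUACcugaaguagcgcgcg
mir-305, 5′ arm: aUUGUACUucaucaggugcucug
mir-9a, 5′ arm: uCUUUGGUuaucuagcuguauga
mir-279, 3′ arm: uGACUAGAuccacacucauuaa
mir-996, 3′ arm: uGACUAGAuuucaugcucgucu
mir-995, 3′ arm: uAGCACCAcaugauucggcuu

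The seed AUCACAG was the most widely shared of the 33 seeds found in several genes, with 14 members. Only 2 of the 14, mir-2b-1 and mir-308, had a nucleosome-free region within 1 kb, whereas 9 had a region in all 14 libraries at a start of the gene that hosts them. The seed AUUGCAC of mir-92a, mir-92b and the mir-310 cluster had 6 members, of which 3 had a region of their own. mir-279 and mir-996 both had one.

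Open chromatin next to a microRNA hairpin was about as frequent as next to an arbitrary stretch of the arms, and less frequent than at the starts of coding genes. On the 6 arms 40.8% of the 260 microRNA windows held a region, against 36.1% of end-to-end tiles of 2092 bp, the median width of a microRNA window. A window of that width around the start of a protein-coding gene held a region in 67.3% of 13945 cases. Among other small RNA genes with the same extension, 52.8% of 269 snoRNA windows and 87.9% of 290 tRNA windows had one. Regions in all 14 libraries were found in 23.1% of microRNA windows, against 18.8% of tiles and 45.0% of coding starts. These shares are descriptions of whole classes, which also differ in gene density, and no test was made between them.

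**Figure D1:**
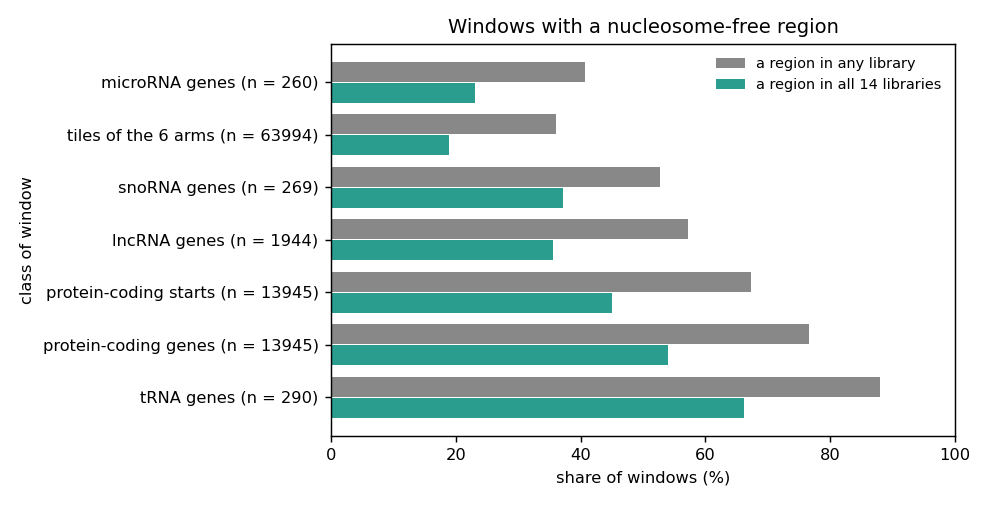
Share of windows with a nucleosome-free region, in percent, by class of window. Grey bars count a region in any library and green bars a region in all 14. The microRNA windows (40.8% and 23.1%) sit just above the tiles (36.1% and 18.8%) and below every other class shown. Windows differ in width, with medians of 2092 bp for microRNA genes, 2662.5 bp for lncRNA genes and 4166 bp for protein-coding genes, so these bars are not like for like.

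A majority of the genes with a region had a peak in every library, while fewer of the regions themselves were that stable. Of the 106 genes, 60 had a peak in all 14 libraries, 37 in 2 to 13 libraries and 9 in a single library. At the level of regions, 75 of 160 (46.9%) were present in all 14 libraries, against 40.8% of all 33226 regions, and 21 (13.1%) in 1 library, against 15.0%. Their median width was 187.5 bp, against 188 bp for all regions. A region lay within 200 bp of an annotated transcription start in 66 of 160 cases (41.25%), against 29.9% of all regions, and in 44 of the 75 stable ones (58.7%), against 43.2% of all stable regions. By the position of the strongest summit, 52 of the 160 were intergenic, 46 intronic, 27 in exons of non-coding genes, 20 in 5′ UTRs, 11 in coding exons and 4 in 3′ UTRs.

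A region overlapped the hairpin of 26 genes, and the other 80 genes with a region had it beside the hairpin. Hairpins are short, with a median length of 92 bp, and no background was counted for stretches of that width. The count of 26 is therefore no result about hairpins. Extending the window from 1 to 2 kb on each side left 106 genes with no region in place of 156, so 50 genes had their nearest region between these distances.

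The share with a region is given here by the place of the hairpin, with no test between places. Among hairpins in an intron of a coding gene on the same strand, 48 of 100 had a region. The count was 25 of 51 for intergenic hairpins, 14 of 36 for hairpins in an exon of a coding gene and 15 of 46 for those in a non-coding gene. Hairpins that overlap another gene only on its opposite strand had one in 4 of 27 cases, mir-4978, mir-9380, mir-980 and mir-4957, and each of these 4 had a peak in all 14 libraries. Neighbouring hairpins share windows: the 262 genes formed 208 loci, and 14 of the 160 regions belonged to several genes, so the genes are not independent cases.

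Hosted microRNAs with no region of their own often had one at a start of the host. Of the genes inside a host on the same strand, 77 had a region of their own and 107 had none, and 64 of these 107 had one within 200 bp of a start of the host, 48 of them in all 14 libraries. They lay in 158 hosts, of which 115 (72.8%) had a region at a start. The share was 76.6% for coding hosts and 58.8% for non-coding hosts. Of all protein-coding starts, 67.3% held a region in the wider window used above. The measures are unlike, since a host could count any of several starts. These shares are therefore no result about microRNA hosts. Taking both positions together, 170 genes had a region of their own or at their host's start and 92 had neither. Where several annotated genes hosted a hairpin, 1 was taken, and a region at a start does not show which transcript the start serves.

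**Figure D2:**
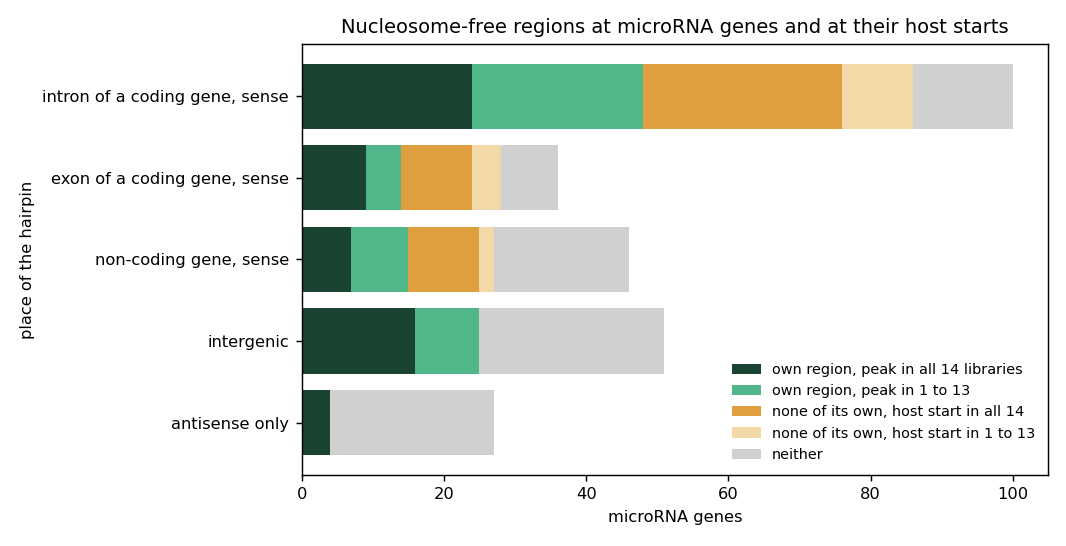
Number of microRNA genes on the 6 arms by place of the hairpin, split by whether a nucleosome-free region lay within 1 kb of the gene or, failing that, at a start of its sense host. In coding introns 48 of 100 genes had a region of their own and a further 38 had one at the host start, 28 of them in all 14 libraries.

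The let-7 complex is the clearest case of this arrangement. let-7, mir-100 and mir-125, which lie side by side on 2L in the non-coding gene lncRNA:let7C, had no nucleosome-free region within 1 kb in any library. The start of lncRNA:let7C, 15717 bp upstream of mir-100 and 16598 bp upstream of mir-125, carried a region in all 14. Its fold, the authors' enrichment of the peak over local background, stood, as a percentile of its library's list, at 72.9 and 71.7 in regenerating discs at 0 h, at 81.8 and 82.0 at 15 h, then at 80.5 and 86.3 at 25 h. In control discs it stood at 78.9 and 87.4 at 0 h, then at 78.5 and 86.0 at 15 h, then at 79.6 and 87.9 at 25 h, and in L3 discs at 82.4 and 78.2. Every library thus placed this start in the upper part of its list. The 2 regenerating libraries at 0 h lay below the other 12, and at 15 and 25 h regenerating libraries lay within the range of the controls of the same time. Percentiles rank a peak within its own list, and since lists differ in length they carry no change between libraries.

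bantam showed the same layout with a further, faint region. Its host, lncRNA:CR43334, had a region in all 14 libraries at each of 2 starts. The far one, chr3L:627900-628624, ranked between percentiles 76.1 and 81.4 in the 6 regenerating libraries, between 71.6 and 85.3 in the 6 control libraries and at 74.2 and 80.3 in L3. The near one, chr3L:639267-639757, ranked between 40.6 and 62.4 in regenerating, between 45.5 and 65.5 in control and at 54.2 and 56.8 in L3 libraries. Within 1 kb of the bantam hairpin (chr3L:642208-642288) only a weak region was found, in 3 regenerating, 2 control and 1 L3 library, never above percentile 2.1.

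The starts of 3 lncRNA hosts are printed here, since they stand for microRNAs whose own windows were empty or weak or whose host start was called. They give 201 bp around the strongest summit on the plus strand, at chr2L:18455632-18455832, chr3L:628347-628547 and chr3R:10093459-10093659 of dm6. Capitals mark any match to GAGAG (GAGA factor), TGANTCA (AP-1), TATCGATA (DREF), TTCNNNGAA (STAT) or CATTCC (Scalloped) on either strand. lncRNA:CR43459, the host of mir-277 and mir-34, held 3 copies of GAGAG, and the other windows held none of these motifs.
lncRNA:let7C start: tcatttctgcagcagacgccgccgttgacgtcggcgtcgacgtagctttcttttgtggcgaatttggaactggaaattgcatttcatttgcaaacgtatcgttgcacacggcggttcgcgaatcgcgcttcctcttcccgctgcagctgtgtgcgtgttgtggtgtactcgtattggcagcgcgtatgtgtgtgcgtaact
lncRNA:CR43334 start: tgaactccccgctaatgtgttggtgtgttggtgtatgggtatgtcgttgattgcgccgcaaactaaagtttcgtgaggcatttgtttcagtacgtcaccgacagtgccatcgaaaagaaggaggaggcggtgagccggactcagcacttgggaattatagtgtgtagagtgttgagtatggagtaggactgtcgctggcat
lncRNA:CR43459 start: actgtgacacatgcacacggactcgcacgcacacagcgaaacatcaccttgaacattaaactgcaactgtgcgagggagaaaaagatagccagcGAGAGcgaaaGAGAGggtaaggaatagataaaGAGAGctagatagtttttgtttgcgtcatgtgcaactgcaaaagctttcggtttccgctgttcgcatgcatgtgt

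**Figure D3:**
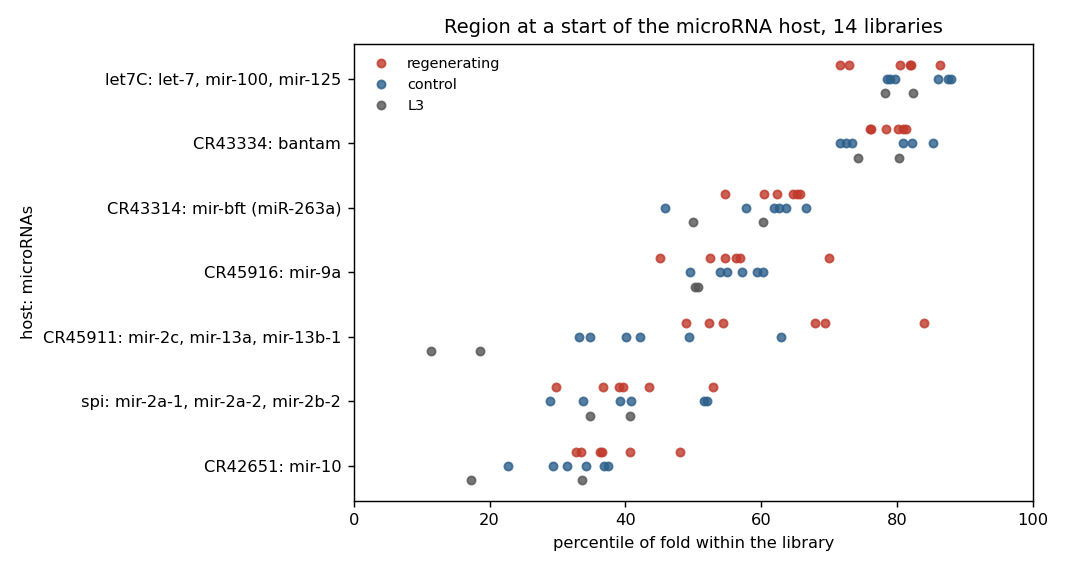
Percentile of the authors' fold within its library for a region at a start of 7 microRNA hosts. Each point is 1 library, with regenerating discs above control discs and L3 discs below. For lncRNA:let7C all 14 libraries lie between 71.7 and 87.9, and at lncRNA:CR45911 the L3 libraries (18.5 and 11.3) lie below the other 12.

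mir-bft, which protects sense organ cells from apoptosis, lies 17591 bp from the start of its host lncRNA:CR43314, where chr2L:11970825-11971423 was present in all 14 libraries, at percentiles 54.6 to 65.7 in regenerating, 45.8 to 66.5 in control and 50.0 to 60.2 in L3 discs. mir-9a, which limits sense organ formation in the wing, had no region of its own, and its host start chr3L:19562169-19562678 was present in all 14. The same held for mir-10, of the Antennapedia complex, with chr3R:6816273-6816619. The trio mir-2c, mir-13a and mir-13b-1 had none of its own, and its host start chr3R:15420624-15420857 in lncRNA:CR45911 stood at 67.9 and 84.0, 69.4 and 52.3, and 48.9 and 54.4 in regenerating discs at 0, 15 and 25 h. The control values were 49.4 and 33.2, 62.9 and 40.2, and 34.8 and 42.1, and the L3 values 18.5 and 11.3. At 0 and 25 h both regenerating libraries ranked above both controls, at 15 h they overlapped, and the L3 libraries lay below the other 12.

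In rank, microRNA regions sat slightly above the middle of each list. The median percentile of microRNA regions was between 51.3 and 62.4 in the regenerating libraries, between 52.4 and 59.7 in the control libraries and 54.6 and 63.8 in the L3 libraries, where the median over all regions was between 51.0 and 51.8. Regions present in all 14 libraries had a median of 74.5, against 68.3 for all such regions in the genome, and the remaining ones 25.2, against 24.7. Presence in every library and high rank therefore went together, as they did genome-wide.

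The 10 strongest of the stable regions, ordered by their lowest percentile over the libraries, were mostly promoters of coding genes beside a hairpin. The first was at mir-954 on chromosome 4, chr4:625917-626342, which contains the hairpin and touches the start of mav, a TGF-β family ligand gene. It ranked at 99.1 and 99.7, 99.6 and 98.4, and 99.2 and 98.9 in regenerating discs at 0, 15 and 25 h, at 99.7 and 99.3, 98.6 and 99.6, and 99.4 and 99.6 in control discs, and at 99.7 and 99.8 in L3. No library placed it lower than 98.4, so it was among the strongest peaks of all lists.

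The next were mir-2493 at the start of CG42788 (lowest percentile 95.5), mir-4955 at trol, the perlecan gene (93.3), mir-4968 at Mob2 (91.8) and mir-995 at Cdk2, a cell cycle kinase gene (91.3). They were followed by mir-4957 at Top1, which encodes topoisomerase (90.7), mir-4984 in an intron of PAPLA1 (88.7), mir-3645 at the myosin light chain gene Mlc-c (85.8), mir-2501 at Nulp1 (85.7) and mir-4942 at alpha-Cat, a cell adhesion gene (85.4). In 9 of the 10 the region touched an annotated coding start, the exception being mir-4984, and only at mir-954 did it overlap the hairpin. mir-4942 shows how 1 library can set such a minimum: its other 13 libraries lay between 98.6 and 99.8, and the 85.4 came from 1 regenerating library at 15 h.

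Gains of accessibility with damage were few, and losses were not called. A region was called gained at a time when both regenerating libraries and neither control library had a peak, and lost in the reverse case, among regions that 2 or more of the 4 libraries had. At 0 h, 5 of 117 microRNA regions were gained (4.27%), against 5.41% of all 22190 regions tested, and 0 were lost, against 0.834%. At 15 h, 3 of 121 were gained (2.48%), against 3.19%, and 0 lost, against 2.54%. At 25 h, 6 of 116 were gained (5.17%), against 5.27%, and 0 lost, against 1.33%. The gained shares were thus near the genome-wide background at each time and are no result about microRNA genes. With 2 libraries against 2 no test of 1 region at 1 time can reach significance.

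Most microRNA regions did not differ in presence. All 4 libraries had 84 of them at 0 h, 88 at 15 h and 96 at 25 h. More regenerating than control libraries had a peak in 25.2% of the 127 microRNA regions seen at 0 h, against 25.8% of all regions, in 13.0% of 146 at 15 h, against 18.5%, and in 22.1% of 136 at 25 h, against 23.3%. More control than regenerating libraries had a peak in 0.787% at 0 h, against 9.32% of all regions, in 17.1% at 15 h, against 17.0%, and in 5.88% at 25 h, against 10.2%.

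Presence was also tested per region over the 3 times together, by an exact two-sided permutation of labels within time, over all orders (smallest possible p 0.00926). Of 18797 regions that varied among the 12 time-course libraries, 241 (1.28%) had an unadjusted p below 0.05, and 0 had a Benjamini-Hochberg adjusted p below 0.05 (lowest adjusted p 1, 0%). With that smallest p a pass after adjustment would need a large share of all regions at the minimum. None of the 81 microRNA regions in the test had an unadjusted p below 0.05. The lowest in the gained set, 0.0833, belonged to mir-4914, mir-966 and mir-957, which 6, 4 and 6 regenerating libraries had, against 2, 0 and 2 control libraries.

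Relative depth was on average higher in regenerating than in control libraries, and whether it led to these calls was not tested. The background solved from the lists, a measure of relative depth, averaged 3.13 ± 0.367 fragments over the 6 regenerating libraries and 2.61 ± 0.637 over the 6 control libraries (SD), and the lowest, 1.62, was control replicate 1 at 0 h. Regenerating lists held 21779 to 24139 nucleosome-free peaks and control lists 19174 to 23654. Each list was also shortened to its 19174 peaks of lowest p-value, the length of the shortest list. This ordering is by p and not by the fold percentile. With it 3 of the 14 calls were kept: mir-305 at 0 h, and mir-2496 and mir-10404-4 at 25 h. Under a filter that asks whether the pile-up would still pass at the depth of the libraries without a peak, 1 of 5 calls at 0 h, 1 of 3 at 15 h and 4 of 6 at 25 h passed with the genome background. With the local background 0, 0 and 2 passed. In bulk discs fewer cells with an open site and less accessibility per cell cannot be told apart.

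**Figure D4:**
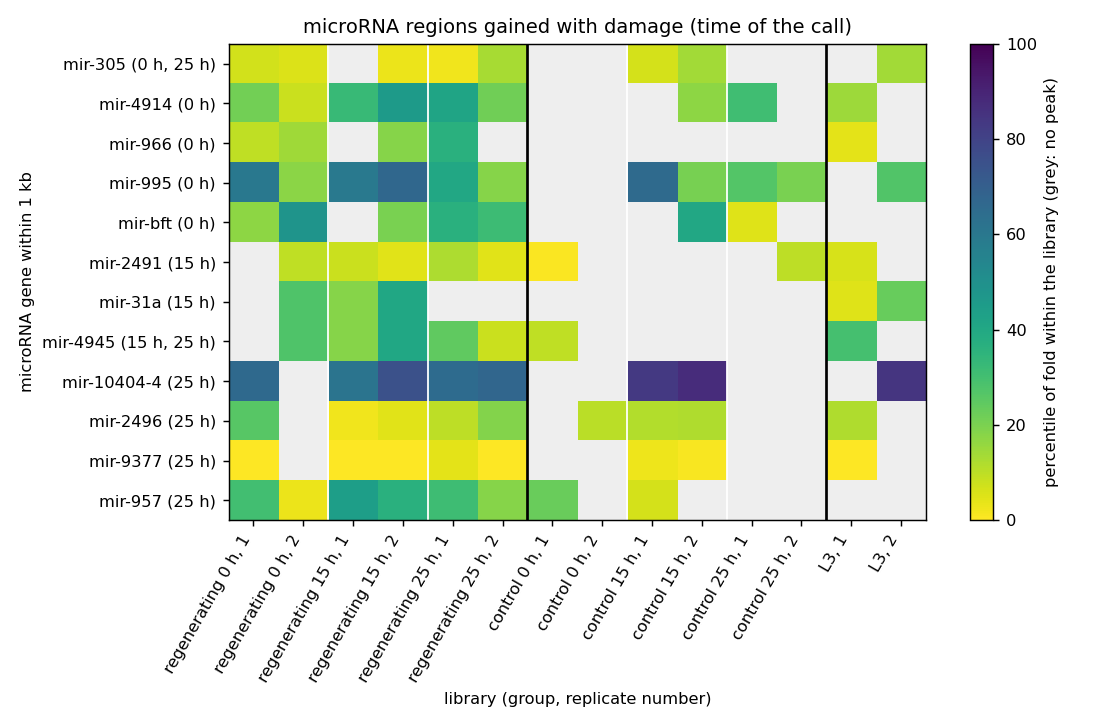
Percentile of the authors' fold within its library for the 12 microRNA regions gained at any time, by library, with grey for no peak. Columns run through regenerating, control and L3 discs. Most filled cells are pale, and mir-10404-4 holds the darkest ones (83.2 and 87.2 in control discs at 15 h).

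The 14 calls fell on 12 regions, 2 of them called at 2 times. One of these was at mir-305, which lies beside mir-275 in a pair known for roles in growth and nutrient response. Its region chr2L:7426894-7427026, at the 5′ UTR of muc, a pyruvate dehydrogenase subunit gene, was gained at 0 h and 25 h. It ranked at 6.90 and 5.34 in regenerating discs at 0 h, was present in 1 regenerating library at 15 h (2.97) and ranked at 2.15 and 13.2 at 25 h. Control discs had no peak at 0 h, both replicates at 15 h (6.56 and 13.9) and none at 25 h, and 1 L3 library had it (13.8). Its presence therefore did not separate damaged from undamaged discs across the series. The pile-up was high for such ranks, 41 and 54 fragments in regenerating discs at 0 h, where the local background was 11.6 and 16.2 fragments.

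The mir-275 and mir-305 locus also had stable regions. chr2L:7424933-7425258, in an intron of lncRNA:CR43857, and chr2L:7425530-7425974, which overlaps a hairpin, were each present in all 14 libraries. The first ranked between 38.9 and 58.7 in regenerating discs, between 18.5 and 51.1 in control discs and at 45.7 and 38.4 in L3. The call at muc was thus 1 of 4 regions at this locus, the only one gained.

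At 0 h mir-bft gained chr2L:11952573-11952748, in an exon of its host. It ranked at 16.8 and 48.2 in regenerating discs at 0 h, 20.3 in 1 library at 15 h, and 36.5 and 31.6 at 25 h. Control discs had it in 1 library at 15 h (40.2) and 1 at 25 h (4.74), and L3 discs had none. A total of 5 of 6 regenerating and 2 of 6 control libraries had a peak (exact permutation p = 0.278, two-sided, adjusted p 1).

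mir-995, hosted by the cell cycle kinase gene Cdk2, was the gain with the highest ranks among single-copy sites. chr3R:20734906-20735097 stood at 60.1 and 17.6 in regenerating discs at 0 h, then at 59.8 and 66.6 at 15 h, then at 40.2 and 18.1 at 25 h. Control discs had no peak at 0 h, but 65.3 and 20.7 at 15 h and 26.7 and 20.2 at 25 h, and 1 L3 library had 27.3. The call at 0 h therefore rested on the 2 control libraries of that time. Of these, 1 had the lowest background of all libraries, and an effect of depth on the call was not tested.

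mir-966 gained chr2L:6045589-6045768 at 0 h, a region that contains the hairpin and lies at a start of its host Pfas, a purine synthesis gene. Regenerating discs had 9.46 and 14.4 at 0 h, 18.0 in 1 library at 15 h and 36.5 in 1 library at 25 h, no control library had a peak, and 1 L3 library had 3.97. mir-4914 gained chr2L:2737654-2737951, which overlaps the hairpin by its edge, in a coding exon of CG31689. All 6 regenerating libraries had it, between 7.93 and 45.6, against 1 control library at 15 h (17.0) and 1 at 25 h (30.7), and 1 L3 library (14.8).

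mir-957 was present in all 6 regenerating libraries, at 30.3 and 2.89, 44.0 and 36.7, and 31.1 and 18.1 at 0, 15 and 25 h. In control discs its region chr3L:22518664-22518975 was found once at 0 h (22.7), once at 15 h (6.49) and not at 25 h, where it was called gained, and L3 discs had none. mir-4945, in an intron of sals, gained chr3R:11443165-11443702 at 15 h (18.2 and 40.5) and 25 h (24.3 and 7.88), with no control peak at either time. At 0 h 1 regenerating library (27.6) and 1 control library (9.75) had it.

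mir-2496 on X gained a 113 bp region at 25 h, chrX:2010503-2010615, which passed the depth filter in both forms and was also kept at equal list lengths. It ranked at 9.92 and 18.7 in regenerating discs at 25 h, with no control peak, but at 11.6 and 11.8 in both control libraries at 15 h. mir-9377, in an intron of the mRNA decay gene Tis11, gained chrX:12664496-12664668 at 25 h (3.95 and 0.129), where both control libraries at 15 h also had a peak (2.72 and 0.875). These were the weakest ranks of the set.

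At 2 sites on X the reads may come from repeated DNA. mir-10404-4 is one of several near-identical copies, and its region chrX:23291486-23291628 runs into a 5.8S rRNA pseudogene. This region had the highest ranks of the set, 65.0 and 67.1 in regenerating discs at 25 h with no control peak. Controls at 15 h had 83.2 and 87.2, and the placement of reads among the copies is uncertain. mir-2491 gained chrX:22833327-22833570 at 15 h (7.88 and 4.65) inside an annotated H transposable element, with the same caution.

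The sequences of 3 gained regions are shown whole, on the plus strand of dm6, for mir-305, which like mir-4945 was called at 2 times, for the death-list gene mir-bft and for mir-2496, which like mir-10404-4 passed both forms of the depth filter. Capitals mark the same motifs as before. The mir-305 region held 1 match to TTCNNNGAA, the mir-bft region 5 matches to GAGAG, some overlapping, and the mir-2496 region 2 matches to GAGAG.
mir-305 region: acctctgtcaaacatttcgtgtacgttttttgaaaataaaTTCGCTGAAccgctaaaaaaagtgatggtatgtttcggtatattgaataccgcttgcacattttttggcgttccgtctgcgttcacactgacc
mir-bft region: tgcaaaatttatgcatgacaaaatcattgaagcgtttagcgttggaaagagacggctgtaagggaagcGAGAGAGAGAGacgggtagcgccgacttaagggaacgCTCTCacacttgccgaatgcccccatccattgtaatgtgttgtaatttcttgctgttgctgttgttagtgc
mir-2496 region: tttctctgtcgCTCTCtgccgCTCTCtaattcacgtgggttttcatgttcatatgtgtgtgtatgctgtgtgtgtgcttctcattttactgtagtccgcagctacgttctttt

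Of the 5 motifs, 4 were about as frequent in microRNA regions as in all regions, and TATCGATA was more frequent, with no test made. In 201 bp around the strongest summit, GAGAG was found in 54 of 160 microRNA regions (33.75%), against 33.0% of all regions, and TGANTCA in 9 (5.625%), against 4.47%. TTCNNNGAA was found in 8 (5.0%), against 4.23%, and CATTCC in 14 (8.75%), against 9.84%. TATCGATA was found in 9 (5.625%), against 2.99%, and in 8 of the 75 stable microRNA regions (10.7%), against 4.05% of all stable regions. Among the 12 gained regions 4 held GAGAG, 2 TGANTCA, 2 TTCNNNGAA and 0 each TATCGATA or CATTCC. A match is a run of letters and does not show binding.

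The remaining gain, at mir-31a, which acts in wing discs and has a relative in mir-31b, was an intergenic region on 2R, chr2R:17784440-17784621. It was called at 15 h, where it ranked at 18.2 and 40.5 in regenerating discs, with pile-ups equal to those at mir-4945 and hence the same ranks. At 0 h 1 regenerating library (27.6) and both L3 libraries (4.99 and 23.1) also had it, and no control library at any time did. Of the 12 gained regions, 10 were present in an L3 library, so most were not restricted to damaged discs, and 8 overlapped a mononucleosome peak.

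Calls were also made at the starts of microRNA hosts. Of the 168 host-start regions tested at 0 h, 4 were gained, against 5.41% of all regions, and 1 was lost, against 0.834%. Of 166 at 15 h 1 was gained, against 3.19%, and 0 lost, against 2.54%. Of 160 at 25 h 2 were gained, against 5.27%, and 0 lost, against 1.33%. At 0 h the gains were at Pfas (mir-966), at bun, a growth regulator gene that hosts mir-967, at lncRNA:CR45911, and at E2f1, the cell cycle transcription factor gene that hosts mir-11 and mir-998. The E2f1 region chr3R:21660429-21660532 ranked at 4.86 and 29.3 in regenerating discs at 0 h with no control peak, and was present in 3 of the 4 later control libraries. At PAPLA1, a phospholipase gene that hosts mir-4984, chr2L:8159274-8159386 was gained at 15 h (20.7 and 14.4), with 1 further regenerating library at 0 h (4.15) and no control peak at any time. At the same gene chr2L:8159537-8159658 was gained at 25 h (11.6 and 26.6), while 1 control library at 0 h (27.3) and 1 regenerating library at 15 h (22.7) also had it. The lost region, chrX:21306648-21306756 at Abca3, which hosts mir-1007 and mir-2535b, ranked at 22.7 and 62.6 in control discs at 0 h. It was absent from all 6 regenerating libraries and from both controls at 15 h. At 25 h 1 control library had it (42.0), as did 1 L3 library (68.8).

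At 25 h a region at the start of lncRNA:CR43459 was gained, upstream of mir-277, a regulator of amino acid breakdown, and mir-34, known for roles in ageing. chr3R:10093468-10093830 ranked at 32.3 and 58.4 in regenerating discs at 0 h, then at 36.1 and 11.6 at 15 h, then at 7.30 and 28.3 at 25 h. In control discs it ranked at 4.88 and 49.5 at 0 h and 40.2 in 1 library at 15 h, with none at 25 h, and in L3 at 29.5 and 43.5. All 6 regenerating and 3 of 6 control libraries had it (exact permutation p = 0.167, two-sided). The region next to the hairpins themselves, chr3R:10100603-10100883, was present in all 14 libraries, at 48.9 to 65.7 in regenerating, 14.7 to 71.9 in control and 73.6 and 68.8 in L3 discs.

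Among 17 microRNAs known for control of cell death, 6 had a region of their own and 2 had a peak in all 14 libraries, mir-14, a death suppressor, and mir-2b-1. Of the 11 with none, 8 had a host start open in all 14 libraries, including mir-2a-1, mir-2a-2 and mir-2b-2 in spi, the EGF ligand gene, mir-13b-2 in CCT2 and mir-11 in E2f1. The region by mir-2b-1, chr2L:8257507-8257694, lies at the start of the neighbouring CG8086 and ranked between 50.4 and 77.4 in regenerating, between 60.6 and 73.5 in control and at 78.9 and 68.8 in L3 discs. mir-263b, partner of mir-bft, had only 1 weak peak, in 1 control library at 15 h (14.7). Of the 8 regions of this list 1 was gained at any time, that of mir-bft at 0 h, and 0 were lost. Of all regions tested at 0, 15 and 25 h, 5.41%, 3.19% and 5.27% were gained and 0.834%, 2.54% and 1.33% lost. Each of these shares is for 1 time, so they are not a like measure for a count over any time. The count is therefore no result about this list.

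Of 23 microRNAs known for growth, patterning or sense organs of the wing, 14 had a region and 5 had a peak in all 14 libraries: mir-8, mir-92a, mir-279, mir-275 and mir-305. mir-92a had the strongest, chr3R:25647094-25647447 at a start of jigr1, with percentiles of 77.1 to 89.3 in regenerating, 77.2 to 87.2 in control and 80.7 and 77.3 in L3 discs. mir-279 had chr3R:29214964-29215350 in all 14, at 44.7 to 64.1 in regenerating, 35.3 to 58.6 in control and 54.5 and 66.0 in L3 discs. The cluster of mir-9c, mir-306, mir-79 and mir-9b, in grp, the Chk1 kinase gene, had peaks in at most 3 libraries, while a start of grp was open in all 14. Of the 9 with no region, mir-7, mir-9a, mir-184, mir-12, mir-283 and mir-304 had a host start open in all 14 libraries. Of its 20 regions 2 were gained at any time, those of mir-305 and mir-31a, and 0 lost, beside the same shares of all regions.

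The 6 remaining lists are given here, beside the 59.5% of all microRNA genes that had no region. Of the 4 timing microRNAs, mir-34 had a region and let-7, mir-100 and mir-125 had none. Of 3 Hox cluster microRNAs, mir-10 had none, and mir-iab-4 and mir-iab-8, 2 strands of 1 hairpin, shared a peak in 1 control library (9.25). Of 6 muscle and neuron microRNAs, mir-1 had a region in 2 regenerating, 1 control and 2 L3 libraries, mir-124 a peak in 1 library, and the others none. Of 19 genes of the testis clusters 4 had a region, and mir-982 and mir-303 shared 1 in all 14 libraries at the start of CG3626. Of 13 genes of the early embryo clusters mir-310 alone had a region, and none of the 8 genes hosted by lncRNA:CR44504 had one at the hairpin or at the host start. Of 14 mirtrons, whose hairpins are short spliced introns, mir-1003 and mir-1008 had a region at the hairpin. Of the 12 mirtrons with none, 8 had a region at a host start, 5 of them in all 14 libraries. These 6 lists held at most 2 regions each, and 0 of these were gained or lost. With 3.19% to 5.41% of all regions gained at a time, so few regions say nothing about these lists.

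The mononucleosome peaks, which mark single positioned nucleosomes, were counted at the same genes. No share over all regions is given for them, so the counts are no result about microRNA genes. They lay within 1 kb of 100 of the 262 genes, in all 14 libraries for 47. Both kinds of region were found at 84 genes, only a nucleosome-free one at 22, only a mononucleosome one at 16 and neither at 140. Of the 160 nucleosome-free regions 36 overlapped no mononucleosome peak, and 53 of the 75 stable ones overlapped one in all 14 libraries.

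As a check of the tissue, the wing disc genes nub, vg, ap, ct and wg each had a peak at a start in all 14 libraries. So did zfh1 and Mef2, genes of the myoblasts that adhere to the disc, trh of the trachea and elav of neurons, and twi of myoblasts had one in 13 libraries and btl of the trachea in 12. Of the hemocyte genes srp had a peak in 12 libraries and Hml and NimC1 in none, and brp of neurons had none either. A peak at a start marks access and not expression. Peaks per nucleosome-free list ranged from 19174 to 24139, and microRNA regions were 0.493% to 0.546% of the regions in each list. Counts over regions are from 33226 merged regions in 14 libraries and carry no error of their own.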

How the data were processed

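ATAC-seq of 14 wing disc libraries was used as peak lists that the authors deposited, 1 nucleosome-free and 1 mononucleosome list per library. STAR 2.4.0j, MACS2 and dm6 are named in the submitters' processing notes. How fragments were sized, peaks thresholded and cut sites shifted is not given in the sources used here. Per the labels' protocols, nuclei were transposed for 30 min and libraries amplified for 13 cycles. In the deposited lists each peak carried the authors' fold ratio, its score, and p-value and q-value as −log10. Fold was ranked within its own list only. The mononucleosome lists carry peak names that say nucleosome-free, and were read as their labels say.

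Nucleosome-free peaks were merged where they overlapped by 1 bp or touched, and joined to microRNA genes of the Ensembl 115 annotation (BDGP 6.54), extended by 1000 bp. Entries that list a mature product as a gene were left out. A region was at a start if within 200 bp. For a hosted hairpin, starts of 1 sense host were examined, a step added after the data were seen. Gained and lost regions were counted beside the background over all regions. Presence was tested per region by exact permutation with Benjamini-Hochberg adjustment over all regions. The permutation and the rule for calls were checked on simulated data, and the adjustment was not. Read depth is not recorded. Fold and p were solved for a whole-number pile-up and background under the caller's Poisson model (tolerance 0.001 on the log10 p scale, solved for at least 99.9% of peaks), and the genome background served as relative depth. These values cover counting error only. The depth filter required the pile-up that 95% of Poisson draws would reach at the other library's depth to pass that list's lowest p.

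The members and lists were chosen with earlier results of these data known. Genes were named by rule: every gained or lost region, the 10 strongest stable regions, and up to 4 members of each list, with others by name only. Host examples and the hosted hairpins named beside them were added after their values were seen. Sequences came from the RefSeq annotation and genome of Release 6. Scripts ran in Python 3.11.15 with scipy 1.17.1, pandas 2.3.3, numpy 2.4.6 and matplotlib 3.10.9. Alternatives were a q threshold, equal list lengths, a summit distance, other windows, left-out libraries, a replicate block and the depth filter, the last added after seeing the data.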

Additional observations from a re-analysis of the deposited data

How the results depend on the processing

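The microRNA counts gained or lost were small and moved with most settings. Against 5, 3 and 6 calls at 0, 15 and 25 h, peaks with −log10 q of at least 5 gave 3 at 0 h, and equal list lengths gave 2 at 0 h. The shares gained there were 2.78% and 1.90%, against 5.70% and 2.92% of all regions tested. A summit within 100 bp gave 8 at 0 h and 5 at 15 h. Of these, 6 and 4 were gains, 5.26% and 3.48% of those tested, against 5.84% and 3.63% of all regions. Windows without extension gave 2, 1 and 1 at the 3 times, among 20, 21 and 20 regions tested. Windows of 2 kb gave 9, 6 and 13, among 198, 208 and 199 tested. The shares gained were 10%, 4.76% and 5% without extension and 4.04%, 2.88% and 6.03% with 2 kb. Of all regions, 5.41%, 3.19% and 5.27% were gained at these times. The depth filter, chosen after seeing the data, kept 1, 1 and 4 calls with the genome background, and with the local background 0, 0 and 2. Leaving out 1 library at a time gave 9 to 19 calls at 0 h, 10 to 20 at 15 h and 11 to 20 at 25 h. The highest at 0 h was 19, without control replicate 2. At 15 and 25 h it was 20, each without regenerating replicate 2, with 11 losses at 15 h. The shares gained in these 3 settings were 17.4%, 8.26% and 14.5%, against 15.4%, 8.49% and 14.9% of all regions. With 1 library left in a group the rule is looser by construction. Losses appeared under some settings, 1 at 15 h with the q threshold, 2 at 15 h and 1 at 25 h at equal list lengths, 2 at 0 h and 1 at 15 h with the summit rule, and 1 each at 0 and 25 h with windows of 2 kb. Leaving out a library also gave losses, up to those 11.

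Of the 14 calls, 8 were kept with the q threshold, 3 at equal list lengths and 13 with the summit rule. At equal list lengths all regions of the genome gave 572 gains and 429 losses at 0 h, against 1200 and 185 in the full lists. The genes with no region numbered 156, from 156 to 162 with 1 library left out, and 236 without extension. Over the 3 times, 0 microRNA regions passed the adjusted test under every alternative run. The replicate block (64 orders, smallest p 0.03125) also gave 0. With such smallest p-values a pass would need a large share of all regions at the minimum, so these zeros follow from the design and show no stability. Across regions, the difference in presence between replicates was not correlated between regenerating and control discs (-0.0225, 0.0354 and -0.00251 at 0, 15 and 25 h, over all regions). Such a correlation does not see a shift common to all regions. Background, the measure of relative depth, was higher in replicate 2 than in replicate 1 in every time-course group, as with 1.62 and 2.83 fragments in controls at 0 h. In L3 discs it was lower in replicate 2. Whether the numbers pair the samples therefore cannot be told.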
